A study of Mus musculus with 4 samples.

Results

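*Slc15a2* (ENSMUSG00000022899) encodes PEPT2, a proton-coupled transporter that carries dipeptides and tripeptides into cells. It was followed as 1 gene of the 32285 in the count files, across every cell type and all 4 libraries of the *Tbx1* lineage at E9.5. The gene was selected on its lower level in cKO in the ectoderm and in the multilineage progenitors (MLPs), uneven by replicate, so those values are given as a description without a test. Cells were sorted as GFP-positive from the microdissected pharyngeal region and heart. Control embryos (cHet) were *Tbx1* Cre/+; *Kmt2d* F/+; GFP F/+, and conditional knockout embryos (cKO) were *Tbx1* Cre/+; *Kmt2d* F/F; GFP F/+. All embryos carried the Cre knock-in at *Tbx1*, so controls and mutants alike were heterozygous for *Tbx1*, and the controls were heterozygous for *Kmt2d* in the lineage. Rep1 pooled 4 embryos per library and Rep2 pooled 3, from mice labelled outbred Swiss Webster (by the study's methods a mixed C57BL/6 and Swiss Webster stock), with a different 10x Genomics kit in each replicate. The library is the replicate (n = 2 per genotype), and a difference between the few outbred embryos of 2 pools cannot be told apart from a difference of genotype. By the study's somite counts, the range of the cKO pool of Rep2 began where that of the cHet pool ended, while the ranges of Rep1 overlapped. In Rep2 a difference of stage thus cannot be told apart from a difference of genotype either.

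PEPT2 belongs to the SLC15 family and takes up short peptides with high affinity, driven by the proton gradient across the plasma membrane. In adult animals it is best known from the renal tubule, where it recovers peptides from the filtrate, and from the choroid plexus and glia, where it clears peptides and 5-aminolevulinic acid from the cerebrospinal fluid. *Kmt2d* encodes a histone H3 lysine 4 methyltransferase that acts mainly at enhancers.

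In GENCODE M21 on GRCm38, *Slc15a2* lies on the minus strand at chr16:36750177-36784962, with 14 annotated transcripts, 4 of them protein coding. The coding transcript ENSMUST00000023616 has 22 exons. Droplet-based 3′ sequencing captures transcripts near their end, in this gene the last exon (chr16:36750177-36751954), of which most is the 3′ UTR of 1604 bp. *Tbx1*, the locus that carries Cre, starts 18.2 Mb away on the same chromosome. The bases before the RefSeq start of *Slc15a2* are shown as the promoter of the RefSeq start, while the 3′ counts do not tell which transcript or start the UMIs come from (chr16:36784963-36785212, minus strand, GRCm38.p6, 250 bases, 5′ to 3′), with E-box letters (CANNTG, a palindromic motif bound by basic helix-loop-helix factors such as Neurog2) in capitals.
Slc15a2 promoter: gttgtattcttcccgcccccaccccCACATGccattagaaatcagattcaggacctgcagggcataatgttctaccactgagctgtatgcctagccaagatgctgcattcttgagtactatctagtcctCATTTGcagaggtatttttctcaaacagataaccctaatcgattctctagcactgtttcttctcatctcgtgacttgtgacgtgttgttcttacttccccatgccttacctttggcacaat
The stretch held 2 E-boxes, 4 CpGs and a GC content of 45.2%, against medians of 6 CpGs and 52.4% GC over the 32851 RefSeq promoters of the same length. At least 1 E-box was present in 66.2% of all those promoters, and at least 2 in 31.8%.

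After filtering, 33448 cells were kept, with medians per library of 17240.5 to 22972 unique molecular identifiers (UMIs, 1 per captured transcript) per cell. *Slc15a2* was sparse. It gave 1504 UMIs in all, found in 1125 cells (3.36%), of which 77.1% held a single UMI. Over all cells of a library, the level was 2.36 counts per 1e6 UMIs (CPM) in cHet Rep1, 1.21 CPM in cKO Rep1, 4.21 CPM in cHet Rep2 and 0.787 CPM in cKO Rep2. The highest and the lowest library were thus those of Rep2. The library of cHet Rep1 stood apart in that 60.04% of its UMIs were in kept cells, against 86.1 to 91.6% in the others. The libraries of a replicate shared few cell barcodes, 12 in Rep1 and 41 in Rep2, and libraries of different replicates shared none. The targeted gene, *Kmt2d*, stood at 17.4 CPM in cHet Rep1, 15.2 CPM in cKO Rep1, 23.9 CPM in cHet Rep2 and 21.0 CPM in cKO Rep2. Counts from the 3′ end need not cover the floxed exons, so these values are no check of the labels. By RT-qPCR, the study reported a depletion of *Kmt2d* in cKO against *Tbx1* Cre/+ embryos of the same stage.

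The cells fell into 22 clusters, 16 of which were given 11 names by markers, each name meaning cells like that type. The 6 clusters without a name held 33.4% of the cells. Each mesenchyme cluster carried 3 of 7 markers (*Tbx18*, *Foxc2* and *Foxd1*), the least that gives a name. The larger MLP cluster (2717 cells) carried 4 of 8, the BrM clusters 5 and 4 of 6, and the pSHF 7 of 7. The ectoderm carried all 6 epithelial markers and 7 of 9 ectodermal ones (*Foxi2*, *Wnt6*, *Trp63* and *Tfap2a* among them), and the neuronal cells carried 7 of 7 markers, such as *Neurod1* and *Tubb3*. *Slc15a2* was highest in these 2 types. In neuronal cells its level was 6.28 CPM in cHet Rep1, 6.31 CPM in cKO Rep1, 31.7 CPM in cHet Rep2 and 18.1 CPM in cKO Rep2 (mean 15.6 ± 12.1 CPM, SD, n = 4 libraries). In ectoderm it was 12.9, 8.37, 25.1 and 7.98 CPM in the same order of libraries (13.6 ± 8.00 CPM). The ranges of these 2 types over the libraries overlapped, with the ectoderm ahead in both libraries of Rep1 and the neuronal cells ahead in both of Rep2. In cKO Rep1 their counting intervals overlapped (5.18 to 12.8 CPM in ectoderm, 4.65 to 8.37 CPM in neuronal cells), and the order turned when each library was given the cHet share of subclusters (7.21 CPM in ectoderm, 8.67 CPM in neuronal cells). In each of the 4 libraries, ectoderm and neuronal cells held the highest levels among the 17 types and clusters. In cKO Rep1 the second place was not resolved, since the endoderm (5.67 CPM, 2.59 to 10.8, from 9 UMIs) overlapped the neuronal interval.

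Below them the means were lower, and the lowest ectodermal library (7.98 CPM) stood above the highest endodermal one (6.24 CPM). The otic vesicle, further down by its mean, reached 9.40 CPM in cHet Rep2, above the lowest ectodermal and the lowest neuronal library. Endoderm, otic vesicle, endothelium and MLPs followed with means of 3.84 ± 2.61, 3.01 ± 4.29, 2.99 ± 2.47 and 2.65 ± 2.95 CPM (SD, n = 4 libraries each). Anterior second heart field (aSHF), branchiomeric muscle progenitors (BrM), posterior second heart field (pSHF) and cardiac muscle had means between 1.14 and 1.90 CPM, and mesenchyme a mean of 0.913 CPM. From endoderm downwards, the range over libraries of each type or cluster overlapped that of the next in the order. The unnamed clusters lay between 0.288 CPM (cluster 18, led by *Pax3*, *Tcf15* and *Meox2*) and 1.13 CPM (cluster 21, led by *Barx1* and *Dlx2*).

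**Figure D1:**
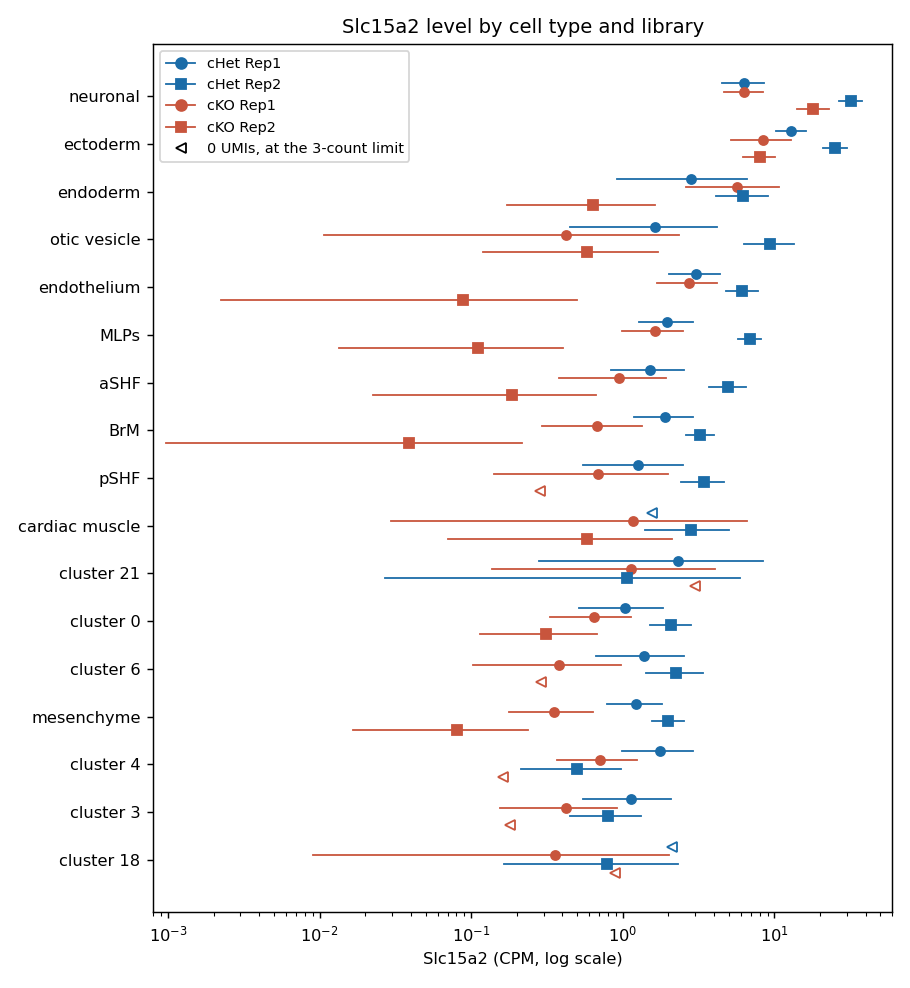
*Slc15a2* level in CPM (log axis) for each type or cluster, ordered by the mean over libraries, with 1 point per library (blue cHet, red cKO, circles Rep1, squares Rep2) and exact 95% Poisson intervals that cover counting error only. Open triangles mark libraries without a UMI, drawn at the 3-count limit. Neuronal cells and ectoderm hold the 2 highest levels of every library, though in cKO Rep1 the neuronal interval overlaps that of the endoderm. The red squares (cKO Rep2) of all other groups lie under 1 CPM. The triangle of cKO Rep2 in cluster 21, with 0 UMIs in 59 cells, lies at its limit of 2.98 CPM.

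As a share of cells, a UMI of *Slc15a2* was found in 18.9% of ectodermal cells in cHet Rep1 (exact 95% binomial interval 14.4 to 24.2), 13.9% in cKO Rep1 (7.99 to 21.9), 31.8% in cHet Rep2 (25.7 to 38.4) and 11.5% in cKO Rep2 (8.85 to 14.6). In cluster 18, the group with the lowest level, the shares were 0% of 54 cells, which allows up to 5.56%, then 1.02%, 1.95% and 0% of 182 cells, which allows up to 1.65%, at median depths of 18836 to 27600 UMIs per cell against 16883 to 21322.5 in ectoderm. Cluster 18 was taken for its low level, so the gap to the ectoderm is a description. When each cell was thinned to 5000 UMIs, which left out none of these cells, the ectodermal shares fell to 7.20%, 1.85%, 9.55% and 4.09%, and those of neuronal cells to 3.18%, 3.38%, 16.2% and 7.96%. The order of the libraries within the ectoderm was no longer that of the full counts, since cKO Rep1 then rested on 2 cells.

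The barcodes with under 1000 genes, which can hold free RNA or broken cells, were read as a background. These sets were unlike, with 14762 such barcodes in cHet Rep1 and 1465 to 2763 in the other libraries. There *Slc15a2* was at 2.14 CPM in cHet Rep1 (35 UMIs), 0 CPM in cKO Rep1 (0 of 1794731 UMIs, which allows up to 3), 2.51 CPM in cHet Rep2 (5 UMIs) and 0.422 CPM in cKO Rep2 (1 UMI). In all cells other than ectoderm and neuronal cells the level was 1.58, 0.818, 3.10 and 0.121 CPM in the same order. In cHet Rep1, and in cKO Rep2 against a value from 1 UMI, the other cells thus stood below the low barcodes. The part of free RNA in the level of the other cells was not tested. In cHet Rep2 the other groups ranged from 9.40 CPM in the otic vesicle (exact 95% Poisson interval 6.34 to 13.4) to 0.496 CPM in cluster 4 (0.214 to 0.977). Both were taken as the highest and the lowest of these groups in that library, so the gap is a description.

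The question of the comparison was which genes respond in the *Tbx1* lineage when the remaining *Kmt2d* allele is lost. In the ectoderm, which was used to select the gene, cKO was lower by 1.54-fold in Rep1 (exact interval from counting 0.940 to 2.64) and by 3.15-fold in Rep2 (2.34 to 4.27). Both cKO libraries lay below both cHet libraries, and the blocked fit gave a log2 fold change of −1.29, and −1.19 without the block. In unblocked fits it was −0.85 when cHet Rep2 was also left out. With each library given the cHet share of its subclusters, the level was 13.9, 7.21, 24.1 and 8.36 CPM in the order of libraries above, and the cKO over cHet ratio of the genotype means was −1.29 on the log2 scale against −1.22 as found.

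In the MLPs, also used in the selection, the level was 1.96 CPM in cHet Rep1 (25 UMIs), 1.62 CPM in cKO Rep1 (20 UMIs), 6.91 CPM in cHet Rep2 (130 UMIs) and 0.112 CPM in cKO Rep2 (2 UMIs). The fold difference was thus 1.21 in Rep1 (counting interval 0.645 to 2.30) and 61.9 in Rep2 (16.8 to 517). The log2 ratio was −0.27 in Rep1 and −5.95 in Rep2, and the blocked fit gave −2.56. Without the block the fit gave −2.25, and in such unblocked fits it gave −1.18 without cKO Rep2, −1.32 without cHet Rep2 and −5.31 without cKO Rep1. The subclusters did not share the level of cHet Rep2 evenly. The MLPs like anterior second heart field (aSHF), with *Nkx2-6* among their leading genes, stood at 14.9 CPM there, and a subcluster led by the mitotic genes *Nusap1* and *Top2a* at 5.21 CPM. In cKO Rep2, 0 UMIs were counted in the 274 aSHF-like MLPs. In Rep1 these cells had 1.73 CPM in cHet (4 UMIs) and 2.54 CPM in cKO (6 UMIs), a ratio of 1.47 with an exact interval of 0.348 to 7.07, and the mitotic subcluster had 2.39 and 0.485 CPM, a ratio of 0.203 (0.0219 to 0.931).

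The other epithelial types, endoderm and otic vesicle, are given without a test like the ectoderm. In the endoderm the level was 2.83, 5.67, 6.24 and 0.632 CPM in the order of libraries above, so that cKO was nominally higher in Rep1 and 9.88-fold lower in Rep2. The otic vesicle had 1.64, 0.420, 9.40 and 0.583 CPM, with 1 UMI behind the value of cKO Rep1 and 3 behind that of cKO Rep2. The genotypes overlapped in the endoderm and did not in the otic vesicle.

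Outside the types that selected the gene, the genotypes were compared in 7 types with edgeR's quasi-likelihood test, blocked by replicate, with p-values adjusted over all genes of a type by Benjamini and Hochberg. *Slc15a2* passed the filter on low counts in 6 of them and was called lower in cKO in 3, the BrM, the pSHF and the mesenchyme. The share of all genes called in either direction was 0.838% in the BrM, 0.826% in the pSHF and 2.62% in the mesenchyme. In the pSHF and the aSHF *Slc15a2* passed the filter through the cHet libraries alone, so that it had to differ there and the call in the pSHF supports nothing. In the BrM and the mesenchyme cKO Rep1 passed as well. All these calls rest on few UMIs in cKO. They also come from the same 4 pools in which the gene was selected as lower in cKO, so they are no independent evidence of the direction. In cHet Rep1 the level in each of the 3 types lay below that of the barcodes with under 1000 genes (2.14 CPM), and in the mesenchyme of cHet Rep2 too (2.51 CPM). That background was nominally lower in cKO than in cHet in both replicates, from 35 and 0 UMIs in Rep1 and 5 and 1 in Rep2 (cHet and cKO). These few UMIs come from unlike sets of barcodes, so the direction is not settled, and its part in the calls was not tested.

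In the BrM, progenitors of the branchiomeric muscles, the level was 1.90 CPM in cHet Rep1 (21 UMIs), 0.681 CPM in cKO Rep1 (8 UMIs), 3.25 CPM in cHet Rep2 (84 UMIs) and 0.0386 CPM in cKO Rep2 (1 UMI). Both cKO libraries were below both cHet libraries, and *Slc15a2* fell by 3.38 ± 0.61 on the log2 scale (SE, edgeR adjusted p = 0.0134). Within replicates the fold was 2.79 in Rep1 (1.19 to 7.30) and 84.1 in Rep2, where a single UMI leaves an interval of 14.7 to 3360.

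In the pSHF, which adds to the inflow part of the heart, 8, 3, 38 and 0 UMIs gave 1.26, 0.682, 3.41 and 0 CPM. The 0 of cKO Rep2 allows up to 0.283 CPM, so its level was at least 12.1-fold lower than that of cHet Rep2 by the 3-count limit alone. With the counting error of both libraries, the exact interval of the cKO to cHet ratio reached up to 0.107, while Rep1 differed by 1.85-fold (0.444 to 10.8). The fitted change was −3.59, given as a description, and it was not called with RLE scaling.

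In the mesenchyme the level was 1.22 CPM in cHet Rep1, 0.354 CPM in cKO Rep1, 1.999 CPM in cHet Rep2 and 0.0805 CPM in cKO Rep2, from 24, 11, 72 and 3 UMIs. Within replicates cKO was lower by 3.45-fold in Rep1 (1.63 to 7.80) and 24.8-fold in Rep2 (8.16 to 123), and *Slc15a2* fell by 2.97 ± 0.43 on the log2 scale (SE, edgeR adjusted p = 2.26e-06). None of the 3 calls was made by DESeq2 with the same block (adjusted p = 1.00 in the BrM and the pSHF, and NA in the mesenchyme with an unadjusted p of 0.000248), whose log2 changes were −3.68, −4.13 and −3.05. Each was also lost in edgeR without the block. In that setting 0 genes of any kind were called in these types, so the loss is not particular to *Slc15a2*. Its log2 change there was −2.97 in the BrM, −3.25 in the pSHF and −2.81 in the mesenchyme. Fits with 1 library left out had no block either, and made no call (the pSHF was not tested without cHet Rep2). In them, leaving out cKO Rep2 moved the log2 change to −1.70 in the BrM, −1.57 in the pSHF and −1.98 in the mesenchyme, and leaving out cKO Rep1 moved it to −5.96, −7.53 and −4.37. With at least 1000 genes per barcode none of the 3 was called, at −3.22 in the BrM and −2.45 in the mesenchyme, and the pSHF no longer passed the filter.

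In the endothelium and the aSHF the same direction did not pass the test. Endothelium had 3.02, 2.73, 6.13 and 0.0889 CPM in the order of libraries above, a fold of 1.11 in Rep1 and 68.9 in Rep2 (12.0 to 2761), and a log2 fold change of −1.95 ± 0.59 (edgeR adjusted p = 0.396). In the aSHF, which adds to the outflow tract and right ventricle, the level was 1.52, 0.941, 4.97 and 0.185 CPM, with a log2 fold change of −2.67. *Slc15a2* passed the filter there through the cHet libraries alone, so this change is a description. The percentage of genes called was 0.0926% in the endothelium and 0.00737% in the aSHF. Without the filter on low counts *Slc15a2* was called in both types, beside 83 of 21265 genes in the endothelium and 125 of 21692 in the aSHF. With RLE scaling it was called in the endothelium, beside 63 of 12962 genes. Without the block the log2 fold change was −1.61 in the endothelium and −2.50 in the aSHF, and in unblocked fits it was −0.50 and −1.55 without cKO Rep2, −1.24 and −1.63 without cHet Rep2, and −5.64 and −4.13 without cKO Rep1. Cardiac muscle, with 0, 1, 11 and 2 UMIs, did not pass the filter, and 0.19% of its genes were called.

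**Figure D2:**
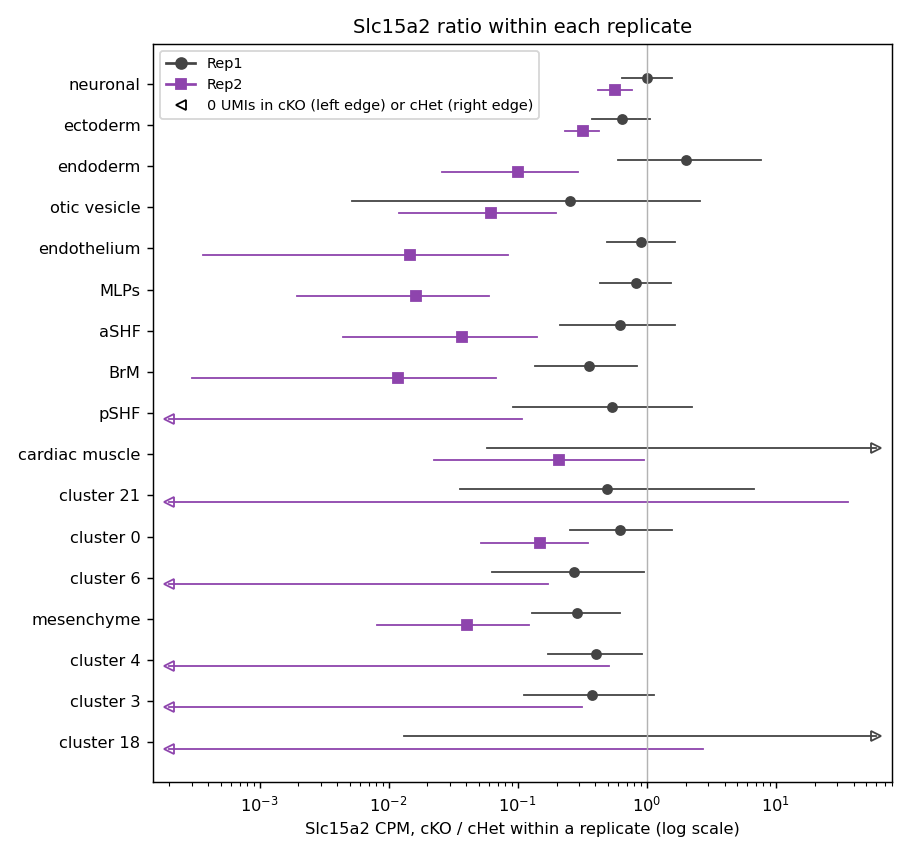
Ratio of *Slc15a2* CPM in cKO to cHet within Rep1 (grey circles) and Rep2 (purple squares) for each type or cluster, on a log axis, with exact 95% intervals from counting error. A value of 1 is no difference, and open triangles at the edges mark ratios with 0 UMIs in cKO (left) or cHet (right). The Rep2 points of the types with calls lie between 0.0119 and 0.0403 or at 0, and the Rep2 point of the neuronal cells at 0.569.

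In the neuronal cells, the other group with a high level, the genotypes overlapped. The fold by which cKO was lower was 0.996 in Rep1 (counting interval 0.640 to 1.54), and cKO was 1.76-fold lower in Rep2 (1.30 to 2.38). The log2 fold change was −0.46 ± 0.24 (SE, edgeR adjusted p = 0.999). It was −0.60 without the block, and in unblocked fits it ranged from −1.34 to 0.75 when 1 library was left out, the latter without cHet Rep2. No gene was called in the neuronal cells (0%, with 723 of 12793 genes at an unadjusted p under 0.05). The genotype effect was 2.56 ± 0.61 lower on the log2 scale (SE) in the sum of 6 other types (BrM, aSHF, pSHF, cardiac muscle, endothelium and mesenchyme) than in the neuronal cells, in a test added after the values were seen. This difference did not pass edgeR's adjusted threshold (adjusted p = 0.206, with 0.243% of the genes called).

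The share of the *Slc15a2* UMIs that came from ectoderm and neuronal cells was 39.6% in cHet Rep1, 36.9% in cKO Rep1, 29.6% in cHet Rep2 and 85.5% in cKO Rep2. These types made up 9.32%, 6.42%, 4.27% and 5.99% of the cells. In cKO Rep2, 24 UMIs were left for the other 11223 cells, against 604 UMIs for 8951 cells in cHet Rep2, a fold of 25.6 (17.0 to 40.2), while in Rep1 the other cells differed by 1.93-fold (1.52 to 2.46). Over the 15 types and clusters with at least 10 UMIs, both cKO libraries were below both cHet libraries in 11. Among all pairs of a gene and such a group, 7.8% had that order, and the 11 groups share their libraries and hold the types that selected the gene, so the count is a description.

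Within the ectoderm and the neuronal cells the level varied several-fold by subcluster. The highest was a neuronal subcluster led by *Neurog2*, a proneural factor, and by the epithelial genes *Epcam*, *Dsp* and *Krt18*, with 14.7 CPM in cHet Rep1, 23.2 CPM in cKO Rep1, 41.5 CPM in cHet Rep2 and 35.4 CPM in cKO Rep2 (37 to 68 cells per library). These leading genes are against the other neuronal cells, and the subcluster gave 131 of the 290 neuronal UMIs. In it, 47.5% of cHet Rep2 cells and 33.8% of cKO Rep2 cells held a UMI. The genotypes overlapped there, with a cKO to cHet ratio of 1.58 in Rep1 (exact interval 0.731 to 3.45) and 0.852 in Rep2 (0.561 to 1.29).

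A neuronal subcluster led by *Dscam*, *Ntrk2* and *Stmn2*, genes of axon growth and neurotrophin signalling, had 7.32, 6.73, 35.5 and 10.6 CPM. At the other end, a subcluster led by the neural progenitor genes *Hes5*, *Fabp7* and *Pax6* had 0.609 and 2.09 CPM in the libraries of Rep1. Of its 245 cells, 82 came from cHet Rep1 and 156 from cKO Rep1, beside 7 from cHet Rep2. With each library given the cHet share of the neuronal subclusters it held, the neuronal level was 7.11, 8.67, 26.3 and 21.2 CPM, with cKO above cHet in Rep1 and below it in Rep2. The value of cKO Rep2 leaves out this lowest subcluster, of which it had no cell. It is thus not at the full cHet share, and the size of the Rep2 gap cannot be read from it.

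In the ectoderm, the subcluster led by *Tfap2b*, *Bmp2* and *Nr2f1* was highest, with 21.6, 14.95, 29.5 and 11.3 CPM. The subcluster with the proneural genes *Neurog1*, *Dll1* and *Phox2a* followed with 12.99, 12.1, 29.5 and 5.14 CPM. The lowest mean was in cells led by *Nkx2-6*, *Tbx3* and *Tgfb2*, with 11.1 CPM (25 UMIs) in cHet Rep1, 0 of 27 cells in cKO Rep1, 13.6 CPM in cHet Rep2 and 6.83 CPM in cKO Rep2. In Rep2 each of the 4 ectodermal subclusters was lower in cKO, on the contrast that selected the gene.

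**Figure D3:**
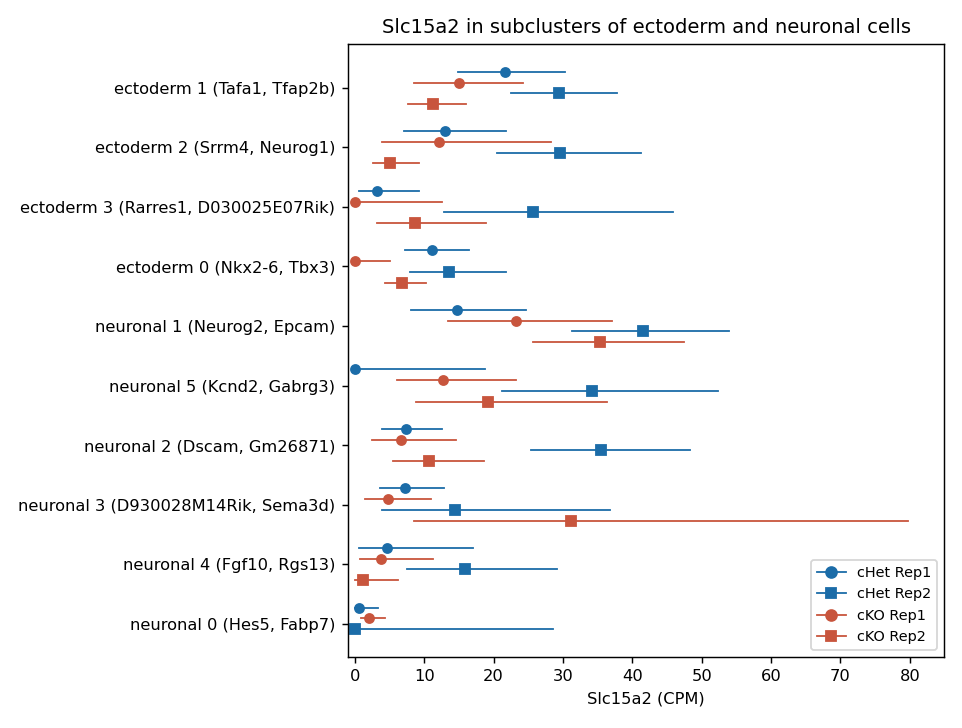
*Slc15a2* level in CPM in the subclusters of ectoderm and neuronal cells, named by their leading genes, with 1 point per library (blue cHet, red cKO, circles Rep1, squares Rep2) and exact 95% Poisson intervals (libraries with 0 UMIs lie at 0, and neuronal 0 has no cell in cKO Rep2). The *Neurog2* and *Epcam* subcluster lies between 14.7 and 41.5 CPM in the 4 libraries, with cHet and cKO mixed.

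By the pattern over the 17 types and clusters, the 10 genes most like *Slc15a2* had Pearson r of 0.875 to 0.929 on log2(CPM + 1) of the mean over libraries, among 9200 genes with at least 20 CPM in 1 or more groups. The points share their libraries, and rare cell groups weigh as much as common ones. *Map1lc3b* (r = 0.929), which encodes an autophagosome protein, was first. It was highest in neuronal cells (209.6 CPM) and then in ectoderm (195 CPM), and stood at 118 CPM or more in every group. *Isl2* (r = 0.906), *Dll1* (0.902), *Phox2a* (0.895) and *Neurog2* (0.887), genes of neurogenesis, were highest in neuronal cells and second in ectoderm, with *Neurog2* at 175 and 69.2 CPM. *Mettl24* (0.875), a methyltransferase-like gene, had the same order. *Galnt3* (0.889), an enzyme of O-glycosylation, *Cyp26b1* (0.884), which degrades retinoic acid, and *Kif13b* (0.875), a kinesin, were highest in ectoderm and second in neuronal cells. *Cemip2* (0.887), a cell surface hyaluronidase, was highest in neuronal cells and second in endothelium. The list depended on the measure, since 2 of the 10 were also in the first 10 by Spearman rho (*Mettl24* and *Cemip2*), and 3 to 5 were when 1 library was used alone.

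**Figure D4:**
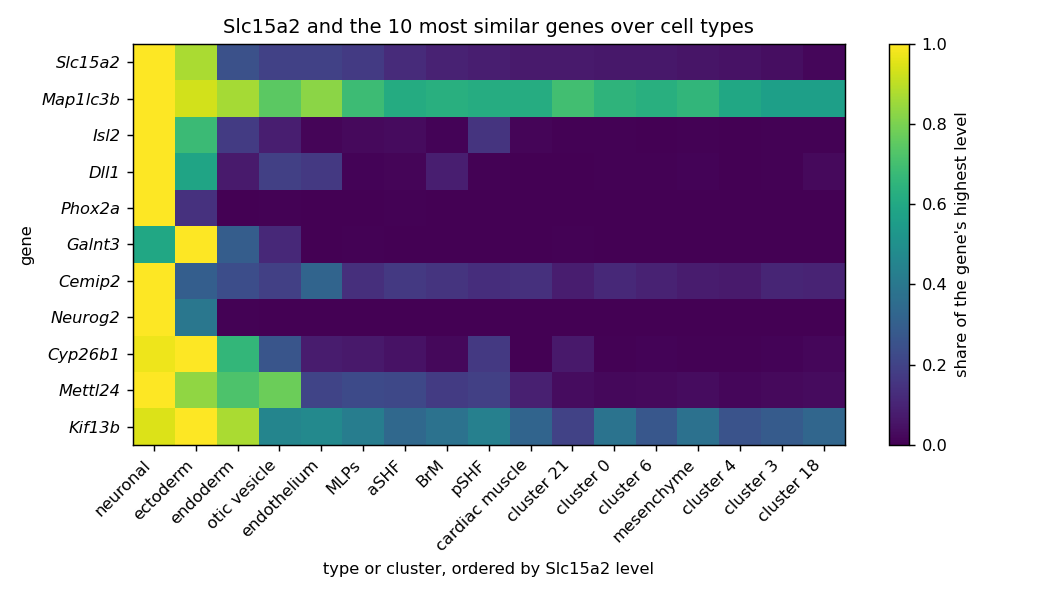
Level of *Slc15a2* and of the 10 most similar genes over types and clusters, each gene scaled to its own highest value (colour, 0 to 1), with the columns ordered by the *Slc15a2* level. The 2 columns at the left, neuronal cells and ectoderm, hold the highest value of every gene, and *Map1lc3b*, with 118 CPM or more in every column, varies least.

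The other members of the peptide transporter family were not called in any type, in 16 tests, beside 0 to 2.62% of all genes called per type. *Slc15a4*, which carries histidine and peptides across endolysosomal membranes, was found in all groups, with means of 4.84 to 9.66 CPM, and its log2 fold change in the 11 types was between −0.24 and 0.35 without a call. *Slc15a3*, a related endolysosomal transporter, had its highest level in cluster 0 (5.61 CPM, led by *Galntl6* and *Pcdh9*) and in neuronal cells (4.66 CPM), and was not called either. In the BrM its level was 0.996 and 0.340 CPM in Rep1 and 1.16 and 0.348 CPM in Rep2 (cHet and cKO, log2 fold change −1.63 ± 0.49, edgeR adjusted p = 0.177). *Slc15a1*, the intestinal transporter PEPT1, and *Slc15a5* had 25 and 50 UMIs in all cells, too few for a comparison.

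Of 113 genes in 7 lists around peptide transport (the family, proton exchangers and scaffold proteins that bind PEPT2, peptidases, the glutathione cycle, amino acid transporters, heme synthesis and the sensing of bacterial peptides), *Slc15a2* left out, 3 calls came from 965 tests in 11 types (0.311%), all in the mesenchyme. There 2, 15, 26, 10, 28, 13 and 6 genes of the lists were tested, so that 3 calls are a share near the 2.62% of all genes called in that type and no result about the lists. *Gsr*, which reduces oxidised glutathione, had 32.5 and 42.2 CPM in Rep1 and 44.0 and 51.9 CPM in Rep2 (cHet and cKO) and rose by 0.31 ± 0.06 on the log2 scale (SE, edgeR adjusted p = 0.000729). The scaffold gene *Slc9a3r2* had 19.4 and 15.7 CPM in Rep1 and 19.8 and 14.1 CPM in Rep2, and fell by 0.39 ± 0.09 (edgeR adjusted p = 0.00377). *Slc9a3r1* fell by 0.43 ± 0.11 (edgeR adjusted p = 0.0116), from 20.7 to 12.1 CPM in Rep2, while Rep1 had 12.9 CPM in both genotypes. These 3 calls were lost without the replicate block, with DESeq2, in the fits with 1 library left out, which had no block either, and with cells thinned to 5000 UMIs. Of all genes in the mesenchyme, 0 were called without the block and 47 with DESeq2, against 410 in the main fit. The loss without the block is thus not particular to these genes. *Slc9a3r2* was also lost with at least 1000 genes per barcode, and *Slc9a3r1* with that, with RLE scaling and with doublets kept. Over all alternatives run, the log2 change was 0.25 to 0.36 for *Gsr*, −0.62 to −0.16 for *Slc9a3r2* and −0.59 to −0.19 for *Slc9a3r1*.

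No member of the peptidase, amino acid transporter, heme or bacterial peptide lists was called in any type, with between 5 and 28 members of a list tested per type. The median log2 fold change of a list in a type was between −0.10 and 0.16 for these lists, beside medians of −0.01 to 0.01 over all genes. The remaining percentages of genes called were 0% in the ectoderm (462 of 12745 genes at an unadjusted p under 0.05), 0.104% in the endoderm, 0.0631% in the otic vesicle and 0.475% in the MLPs.

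Genes with a start within 200 kb of that of *Slc15a2* were read beside it. The files hold 9 of them, of which 6 were tested in at least 1 type, and none was called in edgeR in 40 tests (1 at an unadjusted p under 0.05). Of all genes, 0 to 2.62% were called per type, so the lack of calls is no result about these genes. Over all cells, *Iqcb1*, a gene of the cilium, changed by −0.03 in Rep1 and 0.06 in Rep2 on the log2 scale (cKO over cHet). The elongation factor partner *Eaf2* changed by −0.10 and −0.02, and *Golgb1*, which encodes the Golgi protein giantin, by 0.02 and 0.01. *Slc15a2* itself changed by −0.96 and −2.42. The low genes *Ildr1*, a tricellular junction gene, and *Hcls1*, a blood cell adaptor, had −1.18 and −0.88 in Rep1 and 0.50 and 0.19 in Rep2, and so turned between replicates. The lincRNA *Gm49662*, with 6 and 1 UMIs (cHet and cKO) in each replicate, had −2.90 and −2.63, from too few UMIs for the test. No annotated gene in the files overlapped *Slc15a2*. A pseudogene that the files do not list (*Gm8425*) lies inside it on the other strand.

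**Figure D5:**
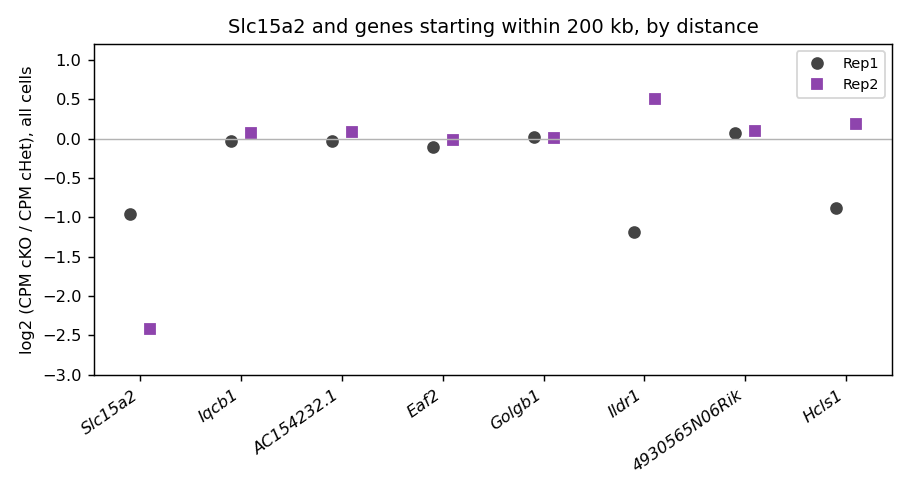
Log2 ratio of CPM in cKO to cHet over all cells in Rep1 (grey circles) and Rep2 (purple squares) for *Slc15a2* and the 7 neighbouring genes with at least 20 UMIs in each library, ordered by distance from its start. *Slc15a2* lies at −0.96 and −2.42, while *Ildr1* and *Hcls1* change sign between replicates.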

How the data were processed

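Single cells of 4 libraries were sequenced on the 10x Genomics 3′ platform. The authors deposited UMI counts per gene and barcode, made with Cell Ranger 8.0.1 and mm10 per the submitters' processing notes; the file headers of Rep1 name version 7.0.1. Whether intronic reads were counted is not given in the sources used here. Barcodes with at least 3000 genes and at most 10% mitochondrial and 5% hemoglobin UMIs were kept, and doublets were removed. Scrublet's own threshold marked 0.0150 to 1.74% of barcodes, so its score was used with the share expected for each kit (4.03 to 5.78% removed). No ambient RNA correction was made. Library totals were 179454146 to 234726019 UMIs. Cells were clustered with scanpy 1.11.5 (2000 variable genes without *Slc15a2*, 30 components, replicates aligned by a Harmony-type correction, Leiden resolution 0.8) and named when at least 3 markers passed. Names were rebuilt here and may differ from those of the study.

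Counts were summed per library and type and fitted with edgeR 4.0.16 (quasi-likelihood, TMM, filterByExpr, replicate as a block, adjusted p threshold 0.05, at least 20 cells per library). Same-numbered libraries share a kit, and their deviations from the group means correlated at 0.613 to 0.828 in the 11 types. The test was checked on simulated counts, with the changed genes drawn from all genes that passed the filter. The check thus does not show how the test acts on a gene with as few UMIs as *Slc15a2*. In neuronal cells (12793 genes) the test recovered 68.2% of genes changed by 1 and 99.1% of those changed by 2 on the log2 scale. Its 21 false calls there were a larger share of the calls than the threshold of 0.05 sets. In mesenchyme (15632 genes) it recovered 83.5% and 100%, with 6 false calls. Intervals are 95% and exact, and cover counting error only. A count of 0 is given the limit of 3 counts. The SE of an edgeR log2 change was taken as its size over the square root of the F statistic of its test. It is not the spread between libraries or replicates. Where nothing says that pools came from separate litters, p-values measure only the spread between these libraries.

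*Slc15a2* and the gene lists were chosen with earlier results of these data known. Named were *Slc15a2*, its family, list genes called in any type, genes starting within 200 kb, and the 10 genes with the highest Pearson r of log2(CPM + 1) over types and clusters. Alternatives covered scaling, filtering, DESeq2 1.42.0, the block, left-out libraries, the minimum of genes, doublets, resolution and thinning.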

Additional observations from a re-analysis of the deposited data

How the results depend on the processing

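*Slc15a2* was called in 3 of the 6 types tested outside those that selected it, and list genes gave 3 calls, summed over types. In the pSHF and the aSHF *Slc15a2* passed the filter through the cHet libraries alone. Without the replicate block, *Slc15a2* was called in 0 types (edgeR, 1 at an unadjusted p under 0.05) and list genes gave 0 calls (1 at an unadjusted p under 0.05). No gene of any kind was called in any type there, so that loss is not particular to *Slc15a2* or the lists. DESeq2 with the block called 0 types (3 at an unadjusted p under 0.05) and 0 list calls (5), its adjusted p in the mesenchyme being NA. Leaving out 1 library, in edgeR fits without the block, gave 0 to 0 types (1 to 5 at an unadjusted p under 0.05) and 0 to 0 list calls (0 to 7). Since the block alone ends these calls, the left-out library cannot be given as the reason. Without the filter on low counts there were 5 types and 8 list calls, and with RLE scaling 3 types (endothelium in place of pSHF) and 5 list calls. With at least 1000 genes per barcode 0 types were called by edgeR (3 at an unadjusted p under 0.05). With cells thinned to 5000 UMIs there were 1 type (mesenchyme, of 3 tested) and 1 list call (*Slc1a3*, not called otherwise except without the filter), and at resolution 0.5 there were 6 list calls. The number of all genes called moved with the setting too. In the mesenchyme it was 410 of 15632 in the main fit, 480 of 23553 without the filter and 294 of 15632 with RLE scaling. It was 383 of 16227 at resolution 0.5, 96 of 16399 with at least 1000 genes and 202 of 12973 with thinning. In the BrM the same settings gave 123, 386, 236, 349, 23 and 65. DESeq2 gave 47 in the mesenchyme and 17 in the BrM. The list counts are thus no result about the lists. The cause of these shifts was not tested. In neuronal cells the log2 fold change reversed to 0.75 without cHet Rep2, in a range of −1.34 to 0.75 over the left-out libraries. In the ectoderm it stayed between −1.51 and −0.85 and in the MLPs between −5.31 and −1.18 under the alternatives run, thinning not among them for the MLPs, where the gene did not pass the filter. Of 54 mean levels recomputed, 53 moved by less than the SD over libraries, the endoderm thinned to 5000 UMIs (6.84 CPM) being the exception. That SD spans genotypes and kits, and was above the mean in the otic vesicle, MLPs, aSHF, pSHF and cardiac muscle. There even a level of 0 would count as not moved, so the count does not show that the levels are stable. With doublets kept, 0% of the aSHF cells and 18.4% of the MLP cells kept their name. Most cells hold no UMI of *Slc15a2*, so values for small groups rest on single counts.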
